A study of Homo sapiens with 6 samples.

Results

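The genes described here encode the HLA molecules and the machinery that loads them with peptides. They are the 37 genes of the deposited table that carry an HLA name (19 genes) or are among 18 named genes of antigen processing and its regulation, out of 19973 genes in all. They were measured by RNA-seq in OVCAR3 cells, a human cell line derived from an ovarian cancer. The shNC group (genotype label WT) carried a control hairpin, and the shNUF2 group (genotype label NUF2 knockdown) carried a hairpin against NUF2, a component of the kinetochore, the structure that links chromosomes to the spindle. Both hairpins were in a vector with puromycin resistance, and both groups were selected with puromycin into stable lines; whether a line is 1 clone is not given in the sources used here. Each group had 3 libraries. No source says that they came from separate cultures, so the p-values measure the spread between these libraries, which may be technical.

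HLA class I molecules pair a heavy chain (such as HLA-B and HLA-C, and the nonclassical HLA-E, HLA-F and HLA-G) with B2M and show peptides from inside the cell to CD8 T cells. The peptides are cut by the proteasome, whose catalytic subunits can be exchanged for the immunoproteasome subunits PSMB8, PSMB9 and PSMB10, pumped into the endoplasmic reticulum by the TAP1-TAP2 transporter, trimmed by ERAP1 and ERAP2 and loaded with the help of tapasin (TAPBP). HLA class II molecules (the HLA-D genes) show peptides from outside the cell to CD4 T cells and are normally made by specialised immune cells under the control of CIITA, but carcinoma cells can also make them. HLA-E is read by an inhibitory receptor of natural killer (NK) cells, and MICA and MICB are read by NKG2D, an activating receptor.

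Of the 37 genes, 25 lie between the first and the last HLA gene on chromosome 6, the span of the major histocompatibility complex (MHC) used here. TAP1 and PSMB9 are transcribed in opposite directions from starts 487 bases apart. The sequences below are the 150 bases upstream of the start of 8 genes whose values are given in detail, from RefSeq on GRCh38.p14, read 5′ to 3′ on the strand of the gene. They are shown because the interferon-stimulated response element (ISRE, searched as GAAANNGAAA on both strands) and the CCAAT letters of the Y box (searched as CCAAT on both strands) are textbook elements of class I and class II promoters. Both are in capitals, and in TAP1 and in TAPBP a pair of ISRE matches overlaps.
TAP1 (chr6:32853705-32853854, minus strand): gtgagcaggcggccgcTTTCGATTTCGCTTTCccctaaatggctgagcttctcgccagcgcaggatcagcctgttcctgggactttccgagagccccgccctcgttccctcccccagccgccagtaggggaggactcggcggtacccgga
PSMB9 (chr6:32854042-32854191, plus strand): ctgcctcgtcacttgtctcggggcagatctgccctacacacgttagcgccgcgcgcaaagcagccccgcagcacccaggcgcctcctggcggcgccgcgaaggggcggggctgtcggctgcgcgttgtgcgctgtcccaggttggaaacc
TAP2 (chr6:32838740-32838889, minus strand): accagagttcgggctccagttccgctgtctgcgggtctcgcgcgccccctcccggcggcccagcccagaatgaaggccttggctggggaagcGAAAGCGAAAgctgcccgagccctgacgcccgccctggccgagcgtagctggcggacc
TAPBP (chr6:33314079-33314228, minus strand): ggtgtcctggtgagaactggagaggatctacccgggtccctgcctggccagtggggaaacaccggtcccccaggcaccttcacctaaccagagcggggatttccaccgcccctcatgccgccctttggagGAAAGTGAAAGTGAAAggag
HLA-DMA (chr6:32953098-32953247, minus strand): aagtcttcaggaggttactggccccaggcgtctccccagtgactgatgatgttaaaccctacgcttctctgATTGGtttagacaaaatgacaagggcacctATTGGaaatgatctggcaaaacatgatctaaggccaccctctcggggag
HLA-DMB (chr6:32941029-32941178, minus strand): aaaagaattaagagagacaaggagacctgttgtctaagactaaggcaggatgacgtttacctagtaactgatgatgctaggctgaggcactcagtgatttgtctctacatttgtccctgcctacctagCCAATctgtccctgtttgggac
HLA-B (chr6:31357180-31357329, minus strand): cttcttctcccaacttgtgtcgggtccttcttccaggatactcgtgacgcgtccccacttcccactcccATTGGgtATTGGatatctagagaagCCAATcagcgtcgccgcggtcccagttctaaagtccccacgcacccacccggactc
HLA-C (chr6:31272093-31272242, minus strand): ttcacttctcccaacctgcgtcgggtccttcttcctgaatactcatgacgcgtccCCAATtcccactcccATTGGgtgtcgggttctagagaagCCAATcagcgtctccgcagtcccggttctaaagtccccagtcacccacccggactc
Of the 37 genes, 32 had a promoter entry. The ISRE letters were found in the 250 bases upstream of 7 of them (B2M, HLA-F, PSMB10, PSME2, TAP1, TAP2 and TAPBP), against 3.07% of 27305 promoters. CCAAT was found in 22 of the 32, and in 11 of the 12 HLA-D entries, against 33.0% of all promoters. HLA-E, HLA-DRA, CIITA and NLRC5 were among those without an entry. A match of these letters is a description of the sequence and not a site of binding. Only these exact letters in the 250 bases were searched, so promoters without a match are not shown to lack an ISRE. The TAP1 pair, 134 and 128 bases upstream of TAP1, lies between the starts of TAP1 and PSMB9 but outside the 250 bases of PSMB9.

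The total counts per library ranged from 13057534 to 16995452 reads. The 37 genes took between 0.299% and 0.309% of the reads in every library. NUF2 itself had 903, 1096 and 1092 reads in shNC cells against 281, 290 and 384 in shNUF2 cells (log2 fold change -1.51, SE 0.08, adjusted p = 2.17e-15), and the groups did not overlap. Levels are given as CPM, reads scaled to a common library size after TMM normalization, and as FPKM, which also divides by the deposited gene length and is the scale used to compare genes with each other. That length can exceed the longest coding transcript (5455 against 1705 bases for B2M, 3338 against 792 for PSMB9). The order of genes in FPKM and the size of FPKM ratios therefore depend on it. Values after ± are the SD over the 3 libraries of a group, shNC first. Changes are log2 fold changes of shNUF2 against shNC with their standard error (SE), and p-values are adjusted by Benjamini-Hochberg over the 12874 genes tested by edgeR's quasi-likelihood test.

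Of the 37 genes, 30 had enough reads to be tested, 29 of them in both groups and HLA-DQA1 through the shNUF2 libraries alone. With shNUF2, 9 of the 30 were higher (30%) and 12 were lower (40%) at an adjusted p under 0.05, and 9 were not called. Over all 12874 genes tested, 33.9% were higher and 33.8% lower, so the share of the machinery that was called was near the background. The median log2 fold change of the 30 genes was -0.06, and that of all genes tested was -0.01. With the study's thresholds (fold change above 1 or below -1, taken here to be on the log2 scale, and an unadjusted p under 0.05), 1 of the 30 genes was higher (HLA-DQA1, which had to be high with shNUF2 to be tested) and 1 was lower (HLA-DMB), against 9.41% and 4.16% of all genes. All 3 shNUF2 libraries lay above all 3 shNC libraries for 9 genes and below them for 13, against 35.2% and 35.4% of all genes. Partners of 1 role moved in opposite directions for the peptide transporter (TAP1 and TAP2) and the aminopeptidases (ERAP1 and ERAP2).

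**Figure D1:**
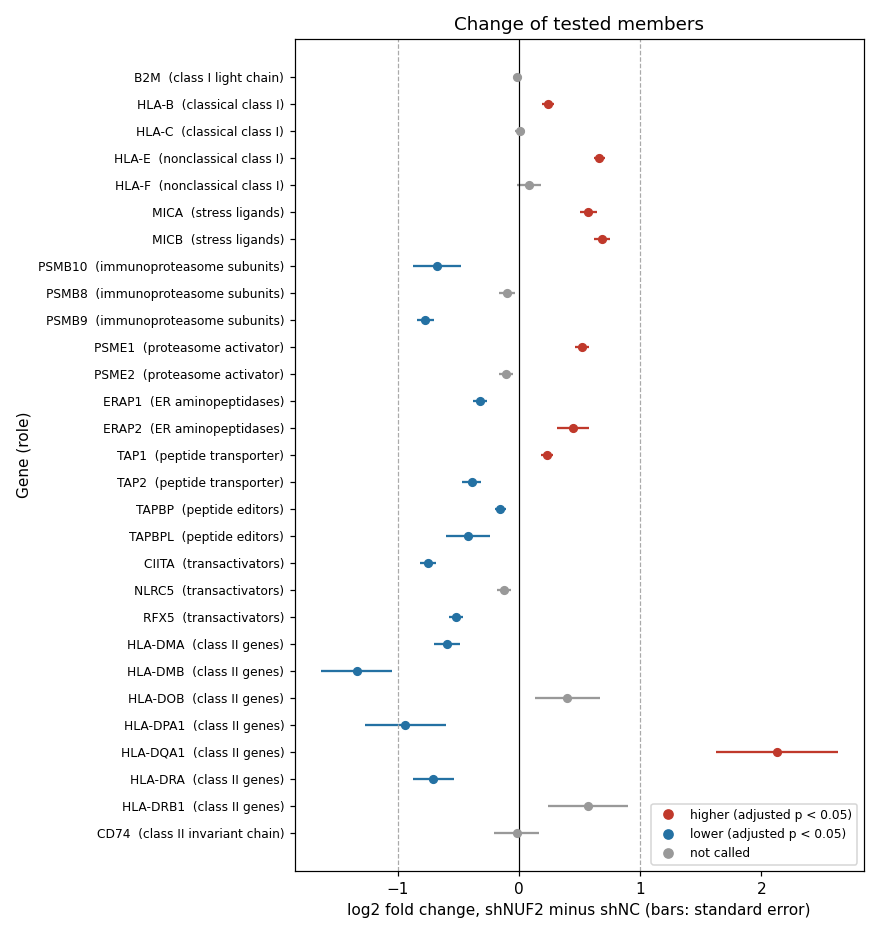
Log2 fold change of the tested genes reported here (x axis, shNUF2 minus shNC, bars are the SE of the fit over 3 and 3 libraries), grouped by role on the y axis; red is higher, blue lower and grey not called at an adjusted p under 0.05. HLA-DQA1 (2.13) and HLA-DMB (-1.34) lie beyond the dashed lines at 1 and -1.

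Among the class I molecules, HLA-E rose and HLA-B rose by less, while the light chain B2M, HLA-C and HLA-F did not pass the test. B2M had 16390, 18137 and 20718 reads in shNC cells against 15686, 14929 and 17293 in shNUF2 cells, or 216 ± 6.48 to 209 ± 0.756 FPKM (log2 fold change -0.01, SE 0.04, adjusted p = 0.788). HLA-C had 3406, 3697 and 3913 reads in shNC cells against 3245, 2996 and 3462 in shNUF2 cells (log2 fold change 0.01, SE 0.04, adjusted p = 0.899). The groups overlapped for both genes.

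HLA-B had 2484, 2602 and 2658 reads in shNC cells against 2728, 2451 and 2854 in shNUF2 cells, and its shNUF2 libraries lay above the shNC libraries in CPM, from 164 ± 10.2 to 194 ± 7.65 (log2 fold change 0.24, SE 0.05, adjusted p = 0.000116). Whether HLA alleles of the cell line that differ from the reference shift any HLA count was not tested.

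HLA-E (ENSG00000204592, chromosome 6 of GRCh38 from 30489509 to 30494194), the ligand of an inhibitory NK cell receptor, had 3001, 3050 and 3413 reads in shNC cells against 4356, 4036 and 4770 in shNUF2 cells. All shNUF2 libraries lay above all shNC libraries, from 200.1 ± 10.2 to 317 ± 6.32 CPM (log2 fold change 0.66, SE 0.04, adjusted p = 7.09e-13). On the FPKM scale HLA-E (69.3 ± 3.19) lay below HLA-C (94.0 ± 2.21) and above HLA-B (55.0 ± 3.25) in the shNC libraries. With shNUF2 it lay above both, at 107 ± 1.15 against 92.0 ± 1.62 for HLA-C and 63.3 ± 1.94 for HLA-B, so that the ratio of HLA-E to HLA-C went from 0.737 ± 0.0259 to 1.16 ± 0.0165 (SD, n = 3; a ratio chosen after the values were seen). This order depends on the deposited lengths, 2922 bases for HLA-E, 2507 for HLA-C and 3016 for HLA-B. The longest coding transcripts of the 3 genes have 2601, 1554 and 1547 bases, and the order by those lengths was not tested. HLA-F had 287, 305 and 349 reads in shNC cells against 319, 252 and 301 in shNUF2 cells (log2 fold change 0.08, SE 0.10, adjusted p = 0.482). HLA-G had no reads in any library.

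**Figure D2:**
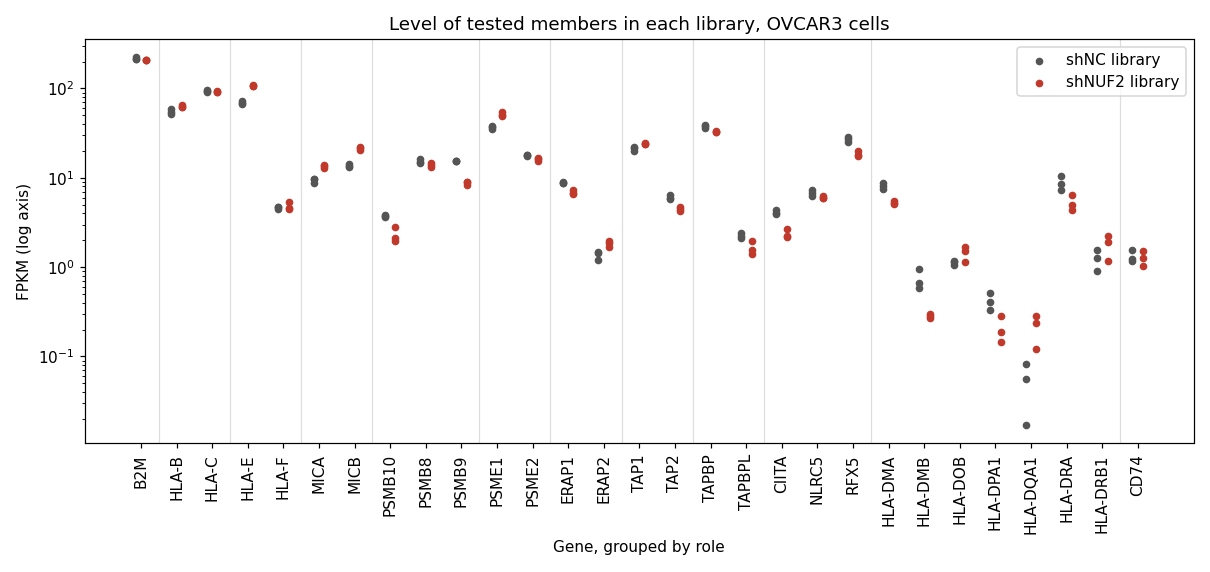
FPKM (y axis, log scale) of the tested genes reported here in each of the 3 shNC libraries (grey) and 3 shNUF2 libraries (red), with the genes grouped by role on the x axis. B2M is the highest at about 216 FPKM with shNC, followed by HLA-C, HLA-E and HLA-B, and HLA-DQA1 is the lowest at 0.0517 FPKM with shNC.

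Both NKG2D ligands of the MHC rose. MICA had 521, 528 and 639 reads in shNC cells against 728, 704 and 760 in shNUF2 cells, or 35.6 ± 2.24 to 52.9 ± 2.05 CPM (log2 fold change 0.57, SE 0.07, adjusted p = 7.35e-08), and MICB had 516, 600 and 680 reads in shNC cells against 793, 809 and 925 in shNUF2 cells, or 37.8 ± 1.63 to 60.9 ± 1.79 CPM (log2 fold change 0.69, SE 0.07, adjusted p = 6.26e-10). Neither gene overlapped between groups. Because NKG2D has ligands outside the MHC as well, the NK receptor ligands other than MICA and MICB were read as a list, of which 5 of 8 tested were higher and 2 were lower, against 33.9% and 33.8% of all genes. RAET1L had the highest log2 fold change, 2.16 (SE 0.44, adjusted p = 9.68e-05), but with 5, 7 and 5 reads in shNC cells against 19, 19 and 30 in shNUF2 cells it passed the filter on low counts only through the shNUF2 libraries. ULBP1 fell most. ULBP1 had 239, 267 and 309 reads in shNC cells against 56, 62 and 67 in shNUF2 cells (log2 fold change -1.94, SE 0.14, adjusted p = 1.99e-12), while its relative ULBP2 went from 106, 111 and 111 reads to 310, 307 and 346 (log2 fold change 1.74, SE 0.12, adjusted p = 5.68e-13). Counted with MICA and MICB, 6 of the 7 NKG2D ligands tested, RAET1L among them, were higher (33.9% of all genes) and 1 was lower. This grouping was made after the values were seen, and its count is a description. NECTIN2, a ligand of the DNAM-1 and TIGIT receptors, rose (log2 fold change 0.86), NCR3LG1, the ligand of NKp30, fell by 0.82 on the log2 scale, and PVR was not called.

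In the proteasome, the immunoproteasome subunits PSMB9 and PSMB10 fell and PSMB8 did not pass the test, while the activator subunit PSME1 rose and its partner PSME2 did not pass. PSMB9 had 718, 807 and 864 reads in shNC cells against 412, 393 and 418 in shNUF2 cells, with no overlap between groups (log2 fold change -0.77, SE 0.07, adjusted p = 3.84e-10), and PSMB10 had 86, 92 and 106 against 44, 59 and 52 (log2 fold change -0.68, SE 0.20, adjusted p = 0.00379). PSMB8 had 720, 824 and 953 reads in shNC cells against 641, 668 and 730 in shNUF2 cells (log2 fold change -0.10, SE 0.07, adjusted p = 0.187). In all, 35.4% of the 75-base windows of PSMB10 are shared with a neighbouring gene, AC040162.1, which had 5 to 19 reads per library. How reads in exons shared between genes were counted is not given, so PSMB10 may have lost reads there.

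The incoming subunits take the places of PSMB5, PSMB6 and PSMB7 in the proteasome core, so each was set against the subunit it replaces. The FPKM ratio of PSMB9 to PSMB6 was 0.340 ± 0.0135 with shNC and 0.149 ± 0.00554 with shNUF2 (SD, n = 3), a log2 difference of -1.19. This difference also holds the rise of PSMB6 (log2 fold change 0.42, SE 0.06, adjusted p = 9.94e-07), beside the fall of PSMB9 given above. The ratio of PSMB10 to PSMB7 was 0.0302 ± 0.00139 and 0.0196 ± 0.00301 (log2 difference -0.64), and that of PSMB8 to PSMB5 was 0.263 ± 0.00366 and 0.281 ± 0.022. Exact two-sided permutation tests over the libraries gave p = 0.10 for the first 2 ratios, the smallest that 3 against 3 allow, and p = 0.40 for PSMB8 to PSMB5 (adjusted over these 3 ratios, 0.15, 0.15 and 0.40). The first 2 ratios did not overlap between groups and the third did. PSMB5 fell (log2 fold change -0.18, SE 0.06, adjusted p = 0.00604) and PSMB7 was not called (log2 fold change -0.05, SE 0.04, adjusted p = 0.279).

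The activator subunit PSME1 had 887, 1022 and 1154 reads in shNC cells against 1214, 1264 and 1360 in shNUF2 cells, with no overlap (log2 fold change 0.52, SE 0.06, adjusted p = 4.72e-09). PSME2 had 885, 1018 and 1091 reads in shNC cells against 766, 778 and 887 in shNUF2 cells (log2 fold change -0.11, SE 0.06, adjusted p = 0.0986), and its libraries did not overlap. The ratio of PSME1 to PSME2 on the FPKM scale was 2.06 ± 0.0637 and 3.19 ± 0.0924, a ratio chosen after the values were seen. Of the 17 genes listed for the standard proteasome, 8 were higher (47.1%, against 33.9% of all genes) and 5 lower (29.4%, against 33.8%). Beside core subunits the list holds POMP, PSME3 and PSME4. POMP, which helps assemble the core, rose most (0.76, SE 0.06, adjusted p = 3.3e-12) and PSME3, an alternative activator, fell most (-0.63, SE 0.05, adjusted p = 4.4e-12). The core subunits PSMA1, PSMA2 and PSMA6 had only 31 to 222 reads per library, against 3706 to 4683 for PSMA7. PSMA6 is among the 8 that were higher, and whether the counting lost reads of these genes was not tested.

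**Figure D3:**
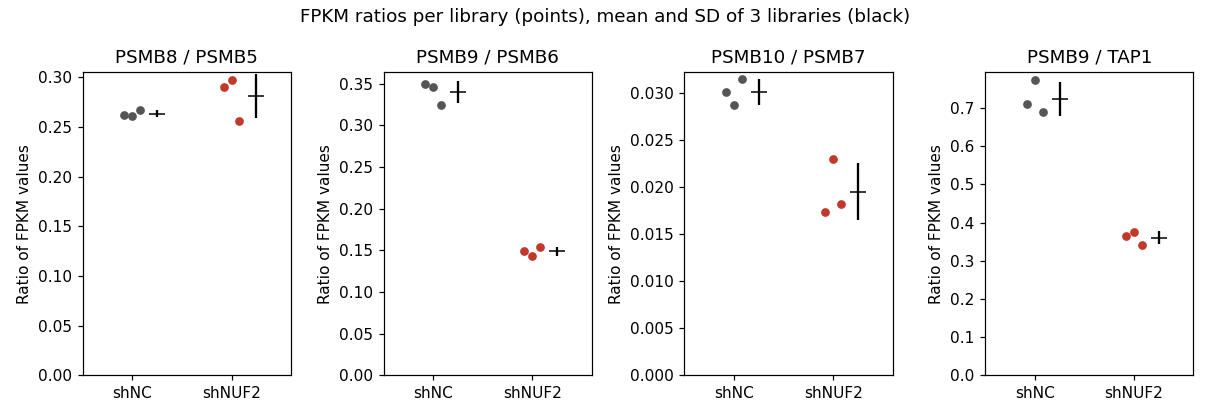
FPKM ratios (y axis, linear scale from 0) in each library (points), with the mean and SD of 3 libraries in black, for PSMB8 to PSMB5, PSMB9 to PSMB6, PSMB10 to PSMB7 and PSMB9 to TAP1, the neighbour read from the opposite strand. PSMB9 to PSMB6 went from 0.340 to 0.149 and PSMB9 to TAP1 from 0.724 to 0.361, and PSMB8 to PSMB5 overlapped between groups.

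The subunits of the transporter moved in opposite directions, and both peptide editors fell. TAP1 rose, with 1454, 1503 and 1807 reads in shNC cells against 1627, 1505 and 1760 in shNUF2 cells (log2 fold change 0.23, SE 0.05, adjusted p = 0.000261), and TAP2 fell, with 571, 582 and 641 against 376, 374 and 452 (log2 fold change -0.39, SE 0.08, adjusted p = 9.13e-05). For the divergent pair shown above, the FPKM ratio of PSMB9 to TAP1 went from 0.724 ± 0.0438 to 0.361 ± 0.0173 (SD, n = 3), a ratio chosen after the values were seen. For TAP2, 35.5% of the 75-base windows are shared with AL669918.1, which had no reads. Since the counting of shared exons is not given, this does not show that TAP2 kept all of its reads.

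Tapasin (TAPBP), which bridges class I to the transporter, fell from 2797, 2856 and 3230 reads to 2294, 2186 and 2516 (log2 fold change -0.16, SE 0.05, adjusted p = 0.00428). TAPBPL, another peptide editor, had 109, 113 and 115 reads in shNC cells against 69, 58 and 95 in shNUF2 cells (log2 fold change -0.42, SE 0.18, adjusted p = 0.0401), and its call was lost without shNC replicate 1 or 2 or without shNUF2 replicate 1 or 2, with adjusted p from 0.0700 to 0.155, and with DESeq2 (adjusted p = 0.0687). The trimming enzymes also went apart, ERAP1 from 994, 1104 and 1174 reads to 801, 698 and 792 (log2 fold change -0.32, SE 0.06, adjusted p = 3.96e-05) and ERAP2 from 143, 131 and 176 to 160, 169 and 209 (log2 fold change 0.45, SE 0.13, adjusted p = 0.00444). Of the ER chaperones of class I assembly, 4 of 6 were higher (33.9% of all genes) and 2 lower (33.8% of all genes). Calreticulin (CALR), which holds class I while it is loaded, rose most, to a log2 fold change of 1.15 (SE 0.04, adjusted p = 1.7e-18), and UGGT1, the folding sensor, fell most (-0.50, SE 0.04, adjusted p = 1.01e-10).

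Of the transactivators, CIITA and RFX5 fell and NLRC5 did not pass the test. CIITA (ENSG00000179583, chromosome 16 of GRCh38 from 10866222 to 10943021), the master regulator of class II, had 1270, 1314 and 1405 reads in shNC cells against 645, 594 and 846 in shNUF2 cells, or 84.4 ± 4.27 to 49.9 ± 5.57 CPM (log2 fold change -0.75, SE 0.07, adjusted p = 2.01e-10). RFX5, a DNA-binding subunit of the factor at the X box of class II and class I promoters, had 1617, 1929 and 2231 against 1118, 1184 and 1210 (log2 fold change -0.52, SE 0.06, adjusted p = 7.16e-09). NLRC5, the transactivator of class I genes, had 1280, 1212 and 1418 reads in shNC cells against 1020, 963 and 1167 in shNUF2 cells, and its groups overlapped in CPM (log2 fold change -0.12, SE 0.06, adjusted p = 0.0649). NLRC5 was called lower in 3 of 15 alternatives, with library totals (adjusted p = 0.0171), with no filter (adjusted p = 0.0184) and without shNC replicate 2 (adjusted p = 0.0117). PSME2 was also called lower in 3 of 15, with library totals (adjusted p = 0.0317) and with limma at both pseudocounts (adjusted p = 0.0176 and 0.0178). CIITA overlaps DEXI on the opposite strand over 2416 exon bases, and DEXI had 140, 144 and 135 reads in shNC cells against 238, 215 and 216 in shNUF2 cells. The strand setting of the counting is not given, so reads of the pair may have been mixed.

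The factors that bind class II promoters together with CIITA were read as a group formed after the values were seen. Of the 8 (CIITA, RFX5, RFXANK, RFXAP, NFYA, NFYB, NFYC and CREB1), 7 were lower (33.8% of all genes) and 1, NFYA, was not called (log2 fold change 0.02), a count that is a description since the group was chosen on these values. RFXAP fell most (log2 fold change -0.91, SE 0.13, adjusted p = 1.39e-06), with NFYB next after CIITA and RFXAP (log2 fold change -0.69, SE 0.09, adjusted p = 9.68e-08).

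The class II genes were present at low levels, and their summed reads were lower with shNUF2, which rested on HLA-DRA and HLA-DMA. All HLA-D genes together had 629, 616 and 698 reads in shNC cells against 399, 393 and 441 in shNUF2 cells, or 41.1 ± 2.89 CPM with shNC and 29.7 ± 0.469 with shNUF2 (SD, n = 3; no test). The groups did not overlap. Without HLA-DRA and HLA-DMA, an alternative added after the data were seen, the sum was 135, 173 and 172 reads in shNC cells against 134, 108 and 162 in shNUF2 cells, or 10.1 ± 0.671 against 9.67 ± 1.25 CPM, and the groups overlapped. Of 13 HLA-D genes, 7 were tested, of which 4 were lower (57.1%, against 33.8% of all genes) and 1 was higher (14.3%, against 33.9%). In bulk RNA, fewer cells making a transcript and less of it per cell cannot be told apart.

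HLA-DMB (ENSG00000242574, chromosome 6 of GRCh38 from 32934629 to 32941028), 1 chain of the editor that exchanges class II peptides, had 38, 48 and 75 reads in shNC cells against 18, 18 and 19 in shNUF2 cells (log2 fold change -1.34, SE 0.29, adjusted p = 0.000259), and its partner HLA-DMA had 310, 299 and 348 against 180, 181 and 196 (log2 fold change -0.59, SE 0.11, adjusted p = 2.51e-05). Neither overlapped between groups. Of the 75-base windows of HLA-DMB, 27.7% are shared with AL645941.2, which had no reads. As for TAP2, this does not show that HLA-DMB kept all of its reads. The alpha chain HLA-DRA, the class II gene with the highest FPKM with shNC, had 184, 144 and 178 reads in shNC cells against 85, 104 and 83 in shNUF2 cells (log2 fold change -0.71, SE 0.17, adjusted p = 0.00055), again with no overlap.

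HLA-DPA1 had 33, 46 and 32 reads in shNC cells against 15, 11 and 25 in shNUF2 cells (log2 fold change -0.94, SE 0.33, adjusted p = 0.0153), a call that was lost without shNC replicate 2 (adjusted p = 0.088) or shNUF2 replicate 2 (adjusted p = 0.077). HLA-DQA1 (ENSG00000196735, chromosome 6 of GRCh38 from 32628179 to 32647062) moved the other way, with 8, 6 and 2 reads in shNC cells against 27, 11 and 25 in shNUF2 cells (log2 fold change 2.13, SE 0.50, adjusted p = 0.000532). Its libraries did not overlap. It passed the filter on low counts only through the shNUF2 libraries, where it is high, so it could be tested only if it differed in this direction, and it dropped out of the test at an average of at least 1 CPM.

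The remaining class II genes were not called. HLA-DRB1 had 22, 30 and 19 reads in shNC cells against 38, 19 and 36 in shNUF2 cells, with overlap (log2 fold change 0.57, SE 0.33, adjusted p = 0.126), and reached an adjusted p of 0.0488 without shNUF2 replicate 2. HLA-DOB had 29, 35 and 39 against 31, 43 and 45 (log2 fold change 0.40, SE 0.27, adjusted p = 0.186), with every shNUF2 library above every shNC library in CPM. The invariant chain CD74, which guards the class II groove until a peptide is loaded, had 105, 89 and 100 reads in shNC cells against 68, 95 and 92 in shNUF2 cells (log2 fold change -0.02, SE 0.19, adjusted p = 0.933), with overlap.

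Too few reads were counted for 6 of the HLA-D genes to pass the filter on low counts. HLA-DOA had 0, 0 and 1 reads in shNC cells against 0, 3 and 5 in shNUF2 cells. HLA-DPB1, HLA-DQB1, HLA-DRB5 and HLA-DQA2 had at most 5 reads in any library, and HLA-DQB2 had none. When these genes other than HLA-DQB2 were tested without a filter on low counts, the lowest adjusted p from edgeR was 0.126, for HLA-DOA.

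**Figure D4:**
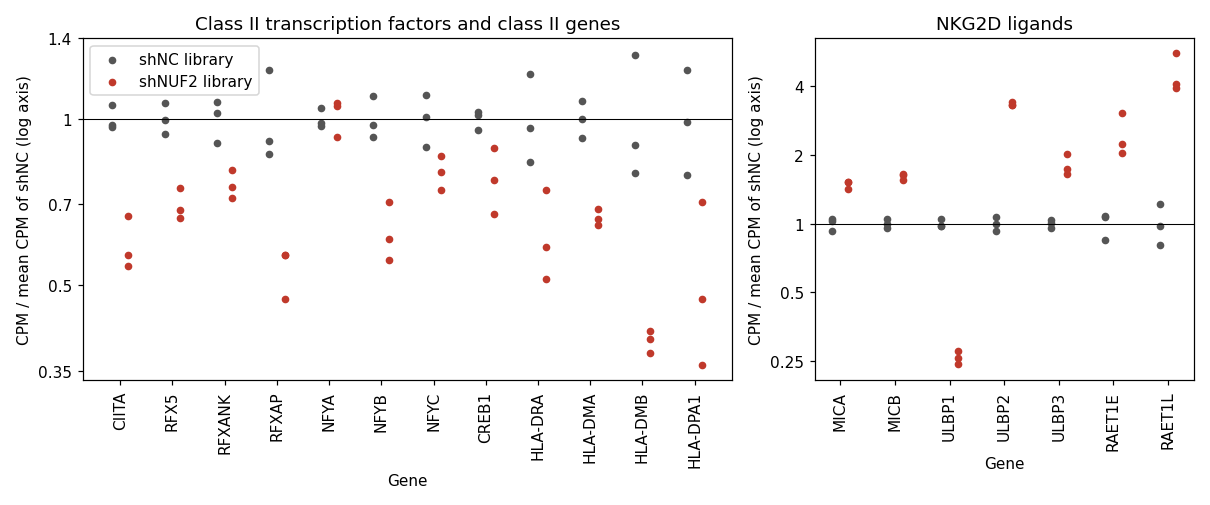
CPM of each library divided by the mean CPM of the shNC libraries (y axis, log scale; grey shNC, red shNUF2) for the class II transcription factors and 4 class II genes that fell (left) and for the NKG2D ligands (right). The genes on the left were picked after their values were seen, and HLA-DQA1, HLA-DOB and HLA-DRB1, which did not fall, are not drawn. NFYA overlaps between groups on the left, and on the right ULBP1 lies below the shNC libraries and RAET1L, tested only through shNUF2, lies highest.

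Outside the HLA genes, 14 genes of the class II pathway were tested, of which 6 were higher (42.9%, against 33.9% of all genes) and 7 lower (50%, against 33.8%). IFI30, which reduces disulfide bonds of antigens, had the highest log2 fold change (1.91, SE 0.55, adjusted p = 0.00356), but with 2, 3 and 6 reads in shNC cells against 10, 12 and 15 in shNUF2 cells it passed the filter on low counts only through the shNUF2 libraries. Cathepsins that cut antigens and the invariant chain rose too, CTSL by 1.54 (SE 0.05), CTSB by 1.16 (SE 0.06) and CTSS by 0.70 (SE 0.05) on the log2 scale. The gene that fell most was RFXAP, given above.

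Class I and class II genes are textbook targets of interferon gamma, so its pathway was read beside them. Of 12 interferon gamma signaling genes tested, 5 were higher (41.7%, near the 33.9% of all genes) and 2 lower (16.7%, against 33.8%). SOCS1, a feedback inhibitor, had 1, 0 and 3 reads in shNC cells against 28, 31 and 20 in shNUF2 cells, which is at least 10.1-fold higher when each shNC library is set to 3 reads. SOCS1 and IRF9 were tested only through the shNUF2 libraries. The gene of the list that fell most was SOCS3 (log2 fold change -0.20, SE 0.05, adjusted p = 0.00209), with overlapping groups. IRF1 rose (log2 fold change 0.86, SE 0.11, adjusted p = 2.39e-07), and IFNG had no reads in any library.

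Of the 13 interferon gamma target genes that are not in the antigen presentation machinery, 7 were tested and all 7 were higher, against 33.9% of all genes, and 1 of them, CXCL11, passed the filter on low counts only through the shNUF2 libraries. CD274, which encodes the checkpoint ligand PD-L1, rose most, from 51, 30 and 51 reads to 269, 210 and 251 (log2 fold change 2.65, SE 0.18, adjusted p = 4.57e-13), with no overlap. The adhesion molecule ICAM1 rose by 1.18 (SE 0.06) and GBP1 by 0.60 (SE 0.11) on the log2 scale. Antigen presentation genes that respond to the same cytokine were not uniform, with HLA-E, HLA-B, PSME1 and TAP1 higher, PSMB9, PSMB10, TAP2 and CIITA lower, and B2M, PSMB8, PSME2 and NLRC5 not called.

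Of the MHC-like genes outside the MHC, 2 of 5 tested were higher and 2 lower (40% each, near the 33.9% and 33.8% of all genes). AZGP1 had the highest log2 fold change (1.05, SE 0.45, adjusted p = 0.041), but it was tested only through the shNUF2 libraries and was not called or not tested in 10 of 15 alternatives (adjusted p up to 0.123). PROCR, the receptor of protein C, rose (log2 fold change 0.77, SE 0.10, adjusted p = 2.09e-07) and was called in all 15, and HFE, an iron regulator, fell most (-0.48, SE 0.10, adjusted p = 0.000217).

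The other genes of the MHC were counted beside the antigen presentation genes. On chromosome 6 of GRCh38 from 29722775 to 33089696, the table had 136 genes, of which 25 are antigen presentation genes. Of these 25, 18 were tested, with 7 higher and 6 lower. Among the other 111, 71 were tested, of which 21 were higher (29.6%) and 19 lower (26.8%), against 33.9% and 33.8% of all genes. Past the log2 fold change of 1 at an unadjusted p under 0.05, 8 of the 71 were above and 0 below, against 9.41% and 4.16% of all genes. The platelet receptor MPIG6B had the highest log2 fold change (log2 fold change 3.02, SE 0.64, adjusted p = 0.000166), but with 3, 1 and 2 reads in shNC cells against 11, 23 and 11 in shNUF2 cells it was tested only through the shNUF2 libraries, as were 4 others of the 71. IER3 had the next highest (log2 fold change 1.55, SE 0.06, adjusted p = 2.13e-18), and ZBTB12 fell most (log2 fold change -0.95, SE 0.22, adjusted p = 0.000362). The heat shock genes HSPA1A and HSPA1B, which lie between the class I and class II genes, rose by 1.45 and 1.36 (SE 0.06 and 0.07) on the log2 scale.

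Markers of other cells that make class II were checked. The 10 leukocyte markers had 69 to 75 reads in all in the shNC libraries and 231 to 273 in the shNUF2 libraries, and 2 were tested, both higher (33.9% of all genes; ITGAX most, 2.35). PTPRC, which defines leukocytes, had 0, 1 and 0 reads in shNC cells against 6, 11 and 6 in shNUF2 cells, and 4 of the 10 markers had 3 reads or fewer in every library. The fibroblast and endothelial markers had 1264 to 1609 reads with shNC and 1030 to 1097 with shNUF2, a lower sum that came from COL1A1 alone. Without COL1A1, a choice made after the data were seen, the other 6 had 77 to 141 reads with shNC and 194 to 211 with shNUF2. Of the 5 tested, 2 were higher and 1 lower (33.9% and 33.8% of all genes). DCN rose and had enough reads in both groups (log2 fold change 1.22, SE 0.20, adjusted p = 7e-06). CDH5 had the highest log2 fold change (3.45, tested only through the shNUF2 libraries) and COL1A1 fell most (-0.39). Of the 6 ovarian carcinoma markers tested, 3 were higher (KRT8 most, 1.04) and 3 lower (MUC16 and MSLN most, -0.75 each), against 33.9% and 33.8% of all genes, and 2 markers had too few reads to be tested, WT1 with 0, 0 and 1 reads in shNC cells against 7, 1 and 0 in shNUF2 cells and SOX17 with 5, 2 and 2 against 4, 14 and 1. The part of these markers in the class II values was not tested.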

How the data were processed

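RNA of OVCAR3 cells with shNC or shNUF2 was sequenced on an Illumina NovaSeq instrument from libraries of a stranded mRNA kit, in 3 libraries per group. Groups and replicate numbers follow the GEO labels. The authors deposited raw read counts for 19973 genes and FPKM values, which match the count per gene length and library total (largest relative deviation 2.71e-07). The submitters' processing notes name cutadapt, HISAT, HTSeq and GRCh38.p13. Their versions and the strand setting of the counting are not given in the sources used here.

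Differential expression was tested on the deposited counts in R 4.3.3 with edgeR 4.0.16 (filterByExpr, TMM, quasi-likelihood test, all 6 libraries, no covariate, Benjamini-Hochberg adjustment over all 12874 genes tested). SEs were obtained from the absolute log2 fold change over the root of its F statistic. CPM uses the TMM-scaled library. FPKM ratios were compared by exact permutation tests. Where no shNC library exceeded 3 reads, the fold was set against 3 reads per library as a lower limit. On simulated counts with 200 of 12759 genes changed by 1.5 on the log2 scale, edgeR recovered 192 and called 11 unchanged genes. In the data 33.9% of genes were called higher and 33.8% lower, and the median absolute log2 fold change was 0.38. The simulation therefore does not measure how well changes of that size and number are recovered.

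The members and gene lists were chosen with earlier results of these data known. Values in every library are given for members beyond a log2 fold change of 1, the most abundant member of each role, and HLA-B, HLA-C, B2M, TAP1, TAP2, NLRC5, CIITA and CD74, and for members at 3 reads or fewer in only 1 group. From each list the gene that rose most and the one that fell most were named. Some genes of this rule and of the lists enter the counts but are not reported here by name. Other genes were named after their values were seen. The alternatives were DESeq2 1.42.0, limma 3.58.1 on log2(FPKM + 1) and log2(FPKM + 0.1), other scalings and filters, the replicate block, each library left out and the TREAT test. Shared sequence was counted in 75-base windows of GENCODE release 29 transcripts, and promoters came from RefSeq, with Python 3.11.15.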

Additional observations from a re-analysis of the deposited data

How the results depend on the processing

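Of the 30 members tested, 23 kept their side of the threshold under all 15 alternatives and HLA-DQA1 under the 14 that tested it, and no called member changed sign. With the replicate block, 9 members were higher and 12 lower, as without it, and NUF2 stayed at -1.51. Same-numbered libraries did not deviate together (correlations 0.04, 0.02 and -0.05), so the numbers were not taken to pair samples. Members above a log2 fold change of 1 numbered 0 with an average of at least 1 CPM, with limma on log2(FPKM + 1) and with TREAT; those below -1 numbered 0 with limma on log2(FPKM + 1) and with TREAT, and 1 to 2 with a library left out. Without a filter, 11 interferon gamma targets and 4 leukocyte markers were higher. MHC-like genes that were higher numbered 1 with DESeq2, no filter, an average of at least 1 CPM or the replicate block, and 1 with any library left out, AZGP1 being the gene lost. Fibroblast and endothelial markers that were higher numbered 1 with an average of at least 1 CPM. The causes were not tested. Low reads limit the class II genes most: 6 HLA-D genes and HLA-G did not pass the filter on low counts, and HLA-DQA1 was not tested with the average of at least 1 CPM. Scaling by library totals moved the median of all genes to -0.05. Reads shared between HLA genes, and with the overlapping or neighbouring genes named in the text, cannot be separated in these counts.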

Other observations

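MARCHF1 and MARCHF8, membrane-bound ubiquitin ligases that take class II molecules off the cell surface, were among the class II pathway genes that were lower with shNUF2. MARCHF1 had a log2 fold change of -0.78 (SE 0.14, adjusted p = 3.1e-05 from edgeR) and MARCHF8 one of -0.41 (SE 0.07, adjusted p = 2.07e-05). Both were named after their values were seen.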
